A study of Mus musculus with 13 samples.

Results

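The RLTR sequences are long terminal repeats (LTRs) of mouse endogenous retroviruses. They were taken as every retrotransposon of the deposited tables whose name starts with RLTR, which gave 126 of the 262 listed retrotransposons, against 111 other LTR sequences. By their names, 121 of them are LTRs and 5 are internal regions (RLTR1B-int, RLTR4_MM-int, RLTR44-int, RLTR45-int and RLTR6-int), so the label LTR does not hold for every member. Grouped by the number in the name they form 35 families, of which RLTR13 is the largest with 22 members. The study sequenced small RNAs of C57BL6/J male germ cells aged 3 to 4 weeks, sorted after Hoechst-33342 staining into SG (spermatogonia), L/Z (spermatocytes in leptotene or zygotene), PD (spermatocytes in pachytene or diplotene) and RS (round spermatids). A single-library set holds 1 library each of SG, PD and RS and 2 biological replicates of L/Z (named LZ below), and a technical-replicate set holds 2 biological replicates each of SG (SG_T) and L/Z (LZ_T), each sequenced in a 50-bp and a 100-bp run that were averaged. No label gives a genotype. In the technical-replicate tables the header names a Pld6 knockout, so the sets were not pooled, and a difference between them includes whatever else separates them. The technical-replicate set has no PD or RS sample.

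An LTR flanks an endogenous retrovirus on both sides and carries its promoter and polyadenylation signal, and a lone LTR often remains in the genome after recombination has removed the internal region. In male germ cells PIWI proteins bind small RNAs called piRNAs, which cut retrotransposon transcripts and guide silencing of their promoters. PLD6, an enzyme of the mitochondrial surface, takes part in forming the 5′ ends of piRNAs. When a piRNA guides the cut of a complementary transcript, the new piRNA made from that transcript overlaps the guide by its first bases, so that paired small RNAs from both strands mark this cycle.

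Small RNAs of these elements are shown first, since all later values count such reads. Reads were matched to the sequences that the study designed for bisulfite PCR of 5 of these elements, with converted bases read back. Positions count from 1 at the start of the sequence as listed, and sense means the listed strand. In the single-library set 376 antisense and 37 sense reads of 24-33 nt matched the 285 bases of the RLTR10C LTR of MMERVK10C, an ERVK element, exactly. For RLTRETN_Mm, the LTR of the ETn and MusD elements, 208 antisense and 108 sense reads matched 297 bases. The lines below leave out the longest reads of this class. Among the rest they give the most frequent read of each strand and the most frequent pair whose 5′ ends overlap by 10 bases. Sequences are written as DNA letters from 5′ to 3′. Capitals mark the first 10 bases, which are the reverse complement of each other within a pair.
RLTR10C antisense, most frequent: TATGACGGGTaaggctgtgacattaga
RLTR10C sense, most frequent and member of the pair: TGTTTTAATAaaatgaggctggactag
RLTR10C antisense, member of the pair: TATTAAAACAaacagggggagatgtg
RLTRETN_Mm antisense, most frequent: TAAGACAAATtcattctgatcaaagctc
RLTRETN_Mm sense, most frequent: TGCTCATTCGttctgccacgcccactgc
RLTRETN_Mm sense, member of the pair: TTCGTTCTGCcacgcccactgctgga
RLTRETN_Mm antisense, member of the pair: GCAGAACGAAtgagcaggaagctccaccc

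The leading RLTR10C read, with its 5′ end at position 240, was found 6 times in SG, 20 and 21 times in the LZ libraries and never in PD or RS. The RLTR10C pair had its 5′ ends at positions 138 and 147. Its sense member was read 3 times in SG and 5 times and 1 time in LZ, its antisense member 7 times in SG and 5 and 10 times in LZ, and neither was read in PD or RS. In the RLTRETN_Mm pair, at positions 20 and 29, the sense member was read 9 times and the antisense member 10 times over the single-library set. Over all RLTR10C reads of the set, 27 pairs had an overlap of 10 bases and no other overlap from 1 to 23 bases had more than 7. Reads were pooled over the libraries before pairing, so a pair can join reads of different samples. Within SG alone 6 pairs overlapped by 10 bases and at most 1 at another overlap, and within the pooled LZ libraries 16 and at most 5. For RLTRETN_Mm, pooled likewise, 22 pairs overlapped by 10 bases and 40 by 18 bases, so 10 was not the leading overlap there. The share of RLTR10C reads that started with T (U in the RNA) was 94.9% in SG, 88.3% and 86.7% in LZ, and A stood at position 10 in 58.2%, 46.7% and 58.4% of them. With up to 2 mismatches, which also takes in diverged copies, RLTR10C reads were 86.7% antisense in SG (95% Wilson interval 82.9% to 89.9%) and 87.4% and 85.6% in LZ. In the technical-replicate set no more than 9 reads per sample matched RLTR10C even with 2 mismatches.

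The strand names of the tables have to be read with care. The tables give forward and reverse reads of each consensus, which the files do not tie to the sense strand of the retrovirus. For RLTRETN_Mm the reverse share of the table in SG was 81.2% and the antisense share of the matched reads 86.1% with up to 2 mismatches, so both use the same orientation. For RLTR10C the reverse share in SG was 16.1% while 86.7% of matched reads were antisense. The listed RLTR10C strand holds 1 copy of AATAAA, the usual polyadenylation signal, and its reverse complement none, so the RLTR10C row appears to be written in the other orientation. Forward and reverse are therefore used below, with no claim on sense and antisense.

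Depth and composition differed between libraries. The single-library set had 12541019 to 29956080 reads per library, and the technical-replicate set 1810805 to 10764026 reads per sample, so 1 read was worth 0.0334 to 0.0797 RPM (reads per 1000000 reads of the library) in the former and 0.0929 to 0.552 RPM in the latter. Reads of 24-33 nt made up 29.8% to 84.5% of the single-library set and 14.8% to 23.5% of the technical-replicate set. Reads of miRNAs made up 15.5% for SG, 7.62% and 11.2% for the LZ libraries, 0.926% for PD and 1.11% for RS. Values given per miRNA reads below are divided by these shares, which lifts PD and RS. Of the fixed marker miRNAs, miR-449a-5p, known to rise in meiosis, stood at 5.57 RPM for SG, 24.1 and 36.1 for the LZ libraries, 92.9 for PD and 161 for RS, and at 1.66 to 15.7 RPM in the technical-replicate samples. SG, PD and RS have 1 library each, so differences from them were not tested, and intervals cover counting error only.

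The small RNAs of the RLTR sequences rose from spermatogonia to pachytene as a share of all reads, while their share among reads of piRNA length did not. The summed level of 24-33 nt reads over the 126 sequences was 400.5 RPM for SG, 607 and 736 RPM for the LZ libraries, 1036 RPM for PD and 774 RPM for RS. SG was lowest and PD highest, with both LZ libraries between them and RS above LZ. As RPM of the 24-33 nt reads alone the same sums were 1342 for SG, 1345 and 1873 for the LZ libraries, 1226 for PD and 931 for RS, so that PD was then the lower one of PD and LZ. As a part of all listed retrotransposons the RLTR sequences made up 1.22% for SG, 2.75% and 1.95% for the LZ libraries, 6.79% for PD and 11.8% for RS. On this scale RS stood highest. Every statement of rise or fall below refers to RPM as deposited unless another scale is named.

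**Figure D1:**
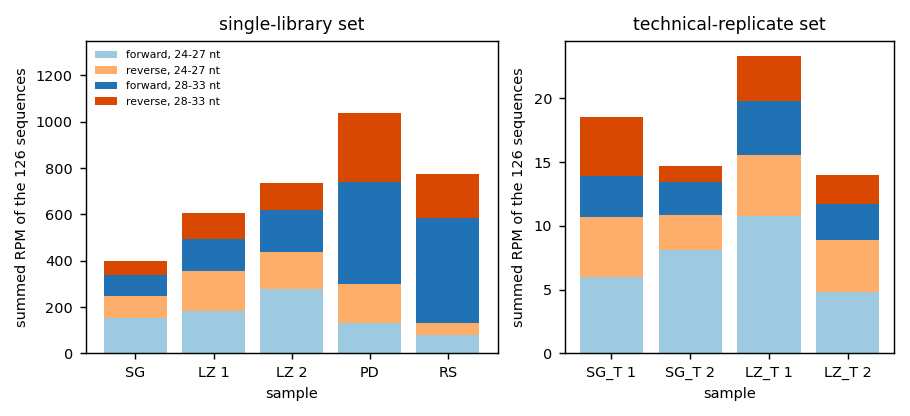
Summed RPM of 24-33 nt reads over the 126 RLTR sequences in each sample (bars), split by consensus strand and length class, with separate vertical scales for the single-library set (left) and the technical-replicate set (right). The single libraries run from 400.5 RPM (SG) to 1036 RPM (PD) and the samples of the technical-replicate set from 14.0 to 23.3 RPM, and reads of 28-33 nt fill most of the bar in PD and RS.

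Few sequences carried these sums. Between 9 (SG) and 18 (PD) of the 126 members reached 10 RPM in a library of the single-library set, and the 5 highest of each library held 44.6% to 56.0% of its sum. In all, 26 members reached 10 RPM in some sample and 52 stayed below 1 RPM in every sample. In PD the members nearest to 10 RPM were RLTR44-int at 10.5 RPM and RLTR50B at 9.93 RPM, the latter chosen after its values were seen. The order by RPM gives numbers of reads credited to a consensus and no density, since the lengths of the consensus sequences were not used. Reads that match several consensus sequences equally well were divided among them by the authors, so close relatives such as RLTR13D3 and RLTR13D3A, or RLTR10 and RLTR10A, do not count independently.

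Taken by the stage with the highest mean, 25 members with a stage mean of at least 10 RPM fell into 4 groups. The highest stage was SG for RLTR45 alone, LZ for 7 members, PD for 10 and RS for 7. Without the second LZ library it was SG for 4 members, LZ for 3 and PD for 11, since RLTR10, RLTR10A and RLTR6_Mm then stood highest in SG and RLTRETN_Mm in PD. The LZ group holds the LTR and the internal region of RLTR4, which belong to murine leukemia virus-like elements, and RLTR10, RLTR10A and RLTRETN_Mm. The PD group holds RLTR6-int, RLTR10C, RLTR13D2 and RLTR9A, and the RS group holds RLTR13D3, RLTR13D3A, RLTR41B and RLTR22_Mus.

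**Figure D2:**
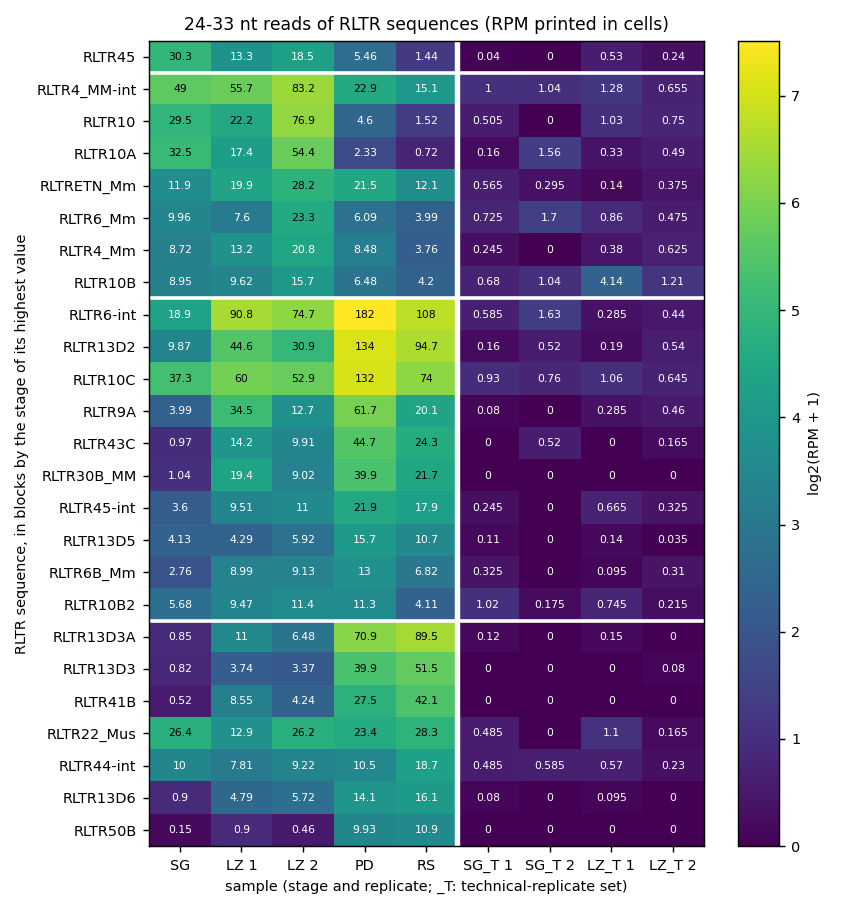
RPM of 24-33 nt reads (numbers in cells, colour as log2(RPM + 1)) of the 25 RLTR sequences with a stage mean of at least 10 RPM, in 9 samples (columns), with white lines between the members highest in SG, LZ, PD and RS (rows). RLTR6-int reaches 182 RPM in PD, RLTR45 falls from 30.3 RPM in SG to 1.44 RPM in RS, and no cell of the technical-replicate set exceeds 4.14 RPM.

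Among the internal regions, RLTR6-int, of the ERV1 class, was the most abundant member. It stood at 18.9 RPM for SG, 90.8 and 74.7 RPM for the LZ libraries, 182 RPM for PD and 108 RPM for RS. Both LZ libraries were above SG and below RS, with no overlap. RLTR4_MM-int, the internal region related to murine leukemia viruses, took another course with 49.0 RPM for SG, 55.7 and 83.2 RPM for the LZ libraries, 22.9 RPM for PD and 15.1 RPM for RS. It was the leading member in SG and in the second LZ library, and its PD and RS values lay below those of all earlier libraries. RLTR45-int rose from 3.6 RPM in SG to 9.51 and 11 RPM in LZ and 21.9 RPM in PD, whereas RLTR44-int stayed between 7.81 and 10.5 RPM up to PD and stood at 18.7 RPM in RS. RLTR1B-int had 8 RPM in SG, 6.51 and 11.3 RPM in LZ and 2.04 RPM in PD.

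Among the LTRs of the ERVK class, RLTR10C had 37.3 RPM for SG, 60.0 and 52.9 RPM for the LZ libraries, 132 RPM for PD and 74.0 RPM for RS. RLTR13D2 had 9.87 RPM for SG, 44.6 and 30.9 RPM for the LZ libraries, 134 RPM for PD and 94.7 RPM for RS. For both, the PD library was highest and SG lowest. RLTR13D3A was near absent in SG, at 0.850 RPM, and then had 11 and 6.48 RPM for LZ, 70.9 RPM for PD and 89.5 RPM for RS. Its relative RLTR13D3 had 0.820 RPM for SG, 3.74 and 3.37 RPM for the LZ libraries, 39.9 RPM for PD and 51.5 RPM for RS. Over all 22 RLTR13 members the sum was 48.8 RPM for SG, 92.8 and 83.2 RPM for the LZ libraries, 298 RPM for PD and 290.1 RPM for RS, so this family held its level into RS while the sum of all members fell. RLTR9A peaked in PD, with 3.99 RPM for SG, 34.5 and 12.7 RPM for the LZ libraries, 61.7 RPM for PD and 20.1 RPM for RS.

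The RLTR10 family split. RLTR10 had 29.5 RPM for SG, 22.2 and 76.9 RPM for the LZ libraries, 4.6 RPM for PD and 1.52 RPM for RS. RLTR10A had 32.5 RPM for SG, 17.4 and 54.4 RPM for the LZ libraries, 2.33 RPM for PD and 0.720 RPM for RS. Both were below their SG and LZ values in PD and RS, the stages in which RLTR10C was highest. The LZ libraries themselves differed 3.46-fold for RLTR10 and 3.13-fold for RLTR10A, and lay on either side of SG, so no change from SG to LZ can be given for them. RLTR45, whose internal region rose, fell from 30.3 RPM in SG to 13.3 and 18.5 RPM for LZ, 5.46 RPM for PD and 1.44 RPM for RS. RLTRETN_Mm had 11.9 RPM for SG, 19.9 and 28.2 RPM for the LZ libraries, 21.5 RPM for PD and 12.1 RPM for RS, and RLTR22_Mus stayed between 12.9 and 28.3 RPM in all 5 libraries.

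Members with at least 10 RPM in either of 2 consecutive stages were then considered, and counted as higher or lower at a log2 ratio of RPM + 0.5 over 1 in size with both LZ libraries on the same side. From SG to LZ, 6 of the 18 members so considered were higher and 0 lower, beside 27.6% higher and 1.15% lower among all retrotransposons considered. The median log2 ratio was 0.78 over these members and 0.23 over all. The 6 were RLTR30B_MM (log2 ratio 3.25), RLTR43C (3.10), RLTR9A (2.43), RLTR6-int (2.1), RLTR13D2 (1.88) and RLTR45-int (1.39). As RPM of the 24-33 nt reads alone the counts were 5 higher and 1 lower of 17, beside 15 and 9 of all 89. Without the second LZ library they were 6 and 2 of 15, beside 20 and 15 of all 83. Per miRNA reads 14 of 17 members were higher and 0 lower, beside 38 and 0 of all 85.

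From LZ to PD, 12 of 24 members were higher and 5 lower, beside 23.4% higher and 41.5% lower among all retrotransposons considered. The median log2 ratio was 0.78 over the members and -0.67 over all, so the RLTR sequences and the listed retrotransposons as a whole lay on opposite sides of 0. The largest rises were those of RLTR13D3 (3.32), RLTR13D3A (2.95), RLTR41B (2.02), RLTR43C (1.84), RLTR13D2 (1.81) and RLTR13D5 (1.53). RLTR13D5 is known as an enhancer in mouse trophoblast stem cells. The falls were those of RLTR10A (-3.68), RLTR10 (-3.29), RLTR4_MM-int (-1.58), RLTR45 (-1.46) and RLTR6_Mm (-1.27). This result turned on the scale. As RPM of the 24-33 nt reads alone 3 of 19 members were higher and 8 lower, beside 5 and 61 of all 86. The medians were then 0.08 over the members and -1.86 over all. Per miRNA reads 54 of 56 members were higher and 0 lower, beside 127 and 1 of all 145, with medians of 3.56 and 2.94. The low miRNA share of PD lifts all its values on this scale. The limit on RPM was applied after rescaling, so more members were considered. Rescaled to the total of all listed retrotransposons the medians were 1.94 and 0.41. On these last scales the members and the whole lay on the same side of 0.

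From PD to RS, 0 of 19 members were higher and 2 lower, beside 0% higher and 44.7% lower among all considered. RLTR9A (-1.59) and RLTR10B2 (-1.36) were the 2 that fell. The median log2 ratio was -0.53 over the members and -0.86 over all. Rescaled to the total of all listed retrotransposons, 9 of 27 members were higher and 0 lower, beside 24 and 6 of all 101. Per miRNA reads 0 of 58 members were higher and 18 lower, beside 0 and 67 of all 146.

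The rises and falls in RPM were concentrated in few sequences. From SG to LZ, 85 members gained 305 RPM in all, of which RLTR6-int held 20.9% and RLTR13D2 9.13%. From LZ to PD, 49 members gained 571 RPM, of which RLTR6-int, RLTR13D2, RLTR10C and RLTR13D3A together held 58.3%, while 74 members dropped by 207 RPM in all, of which RLTR4_MM-int, RLTR10 and RLTR10A held 60.5%. Without RLTR6-int, RLTR10C and RLTR13D2 the log2 ratio of the summed RPM of PD over LZ was 0.25, against 0.62 with them. From PD to RS, 63 members dropped by 335 RPM in all, of which RLTR6-int, RLTR10C, RLTR9A and RLTR13D2 held 63.2%, and RLTR13D3A gained the most with 18.6 RPM.

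**Figure D3:**
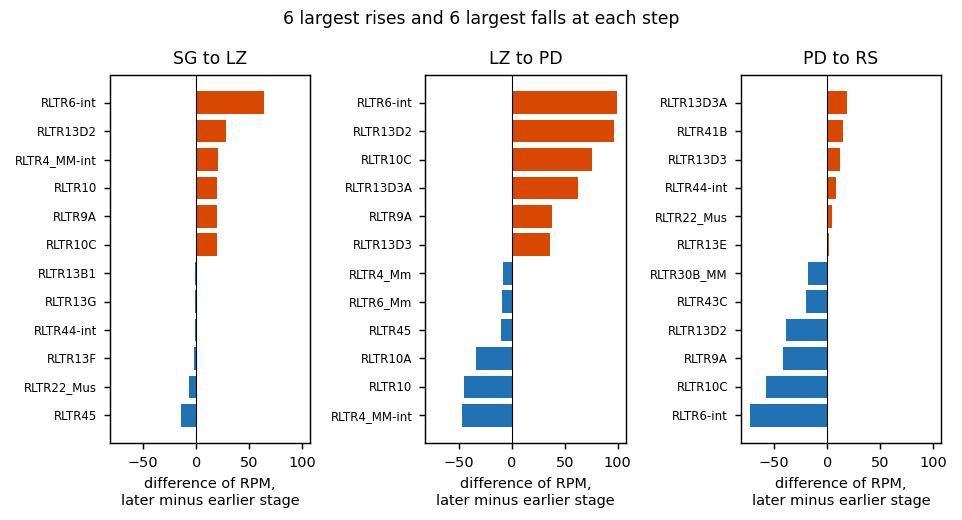
Difference of RPM (later minus earlier stage, LZ as the mean of 2 libraries) of the 6 RLTR sequences with the largest rise and the 6 with the largest fall (bars) at each step of the single-library set. RLTR6-int leads the rise at both early steps, with 63.8 and 98.8 RPM, and the fall from PD to RS.

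The strand of the small RNAs moved with the stage in some members and stayed fixed in others. RLTR10C, the LTR of MMERVK10C, shifted toward the reverse strand. Its reverse share was 16.1% for SG (95% Wilson interval 13.2% to 19.7%), 62.8% and 44.2% for the LZ libraries, 93.3% for PD (92.1% to 94.4%) and 87.2% for RS (84.9% to 89.2%). The LZ libraries lay between SG and PD without touching either. Its forward reads fell from 31.3 RPM in SG to 22.3 and 29.5 RPM for LZ, 8.80 RPM for PD and 9.47 RPM for RS. Its reverse reads were 6.02 RPM for SG, 37.6 and 23.4 RPM for the LZ libraries, 123 RPM for PD and 64.5 RPM for RS, so the 2 strands of this row moved in opposite directions. These shares are those of the row as deposited, whose orientation is in doubt, and give no order of direction between RLTR10C and other members. Most RLTR10C reads of PD did not come from the stretch shown above: the row corresponds to about 1753 reads in PD, but 52 reads of PD matched these 285 bases with up to 2 mismatches. In SG the row corresponds to about 495 reads and 362 matched.

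RLTR13D2, another ERVK LTR, moved toward the forward strand of its own row. Its reverse share was 54.4% for SG (45.7% to 62.5%, from about 131 reads), 6.89% and 16.1% for the LZ libraries, 4.49% for PD (3.63% to 5.56%) and 4.26% for RS. Its reverse reads stayed between 3.07 and 6.02 RPM in all 5 libraries, and its forward reads rose from 4.50 RPM in SG to 41.5 and 25.9 RPM in LZ and 128 RPM in PD. The share therefore moved mainly through the forward strand. RLTR13D3 and RLTR13D3A had the same form, with reverse reads of at most 1.71 RPM in any library and forward reads of 38.9 and 70.4 RPM in PD. RLTR13D5 went from 85.0% reverse in SG (73.8% to 92.4%, from about 54.9 reads) to 45.9% and 68.9% for LZ, 7.47% for PD and 26.6% for RS. In contrast, RLTR13D6, which is known to act as an enhancer in mouse embryonic stem cells, was 90.6% and 93.4% reverse in LZ and 86.4% in PD. In SG it was 57.8% reverse at only 0.9 RPM, too few reads to give its course from SG.

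RLTR6-int shifted most in the last step. Its reverse share was 42.4% for SG (36.7% to 48.8%), 61.9% and 55.9% for the LZ libraries, 46.0% for PD (44.0% to 48%) and 15.3% for RS (13.5% to 17.3%). Its forward reads stood at 98.1 RPM in PD and 91.9 RPM in RS, while its reverse reads stood at 83.5 RPM in PD and 16.6 RPM in RS. RLTR22_Mus, an LTR of the ERVK class, went from 67.1% reverse in SG and 66.0% and 69.0% in LZ to 29.9% in PD (25.1% to 35.2%) and 42.8% in RS. RLTR10B2 had reverse shares of 28.5% in SG, 54.2% and 38.1% in LZ and 67.6% in PD.

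Other members kept to a strand. RLTR9A was reverse in 88.7% of reads in SG and 96.9% to 99.6% at every later stage. RLTR30B_MM was reverse in 84.1% to 93.3% in all 5 libraries. RLTR41B and RLTR43C were forward, with reverse shares of 1.42% to 6.29% for the former and 2.11% to 8.51% for the latter from LZ on. RLTR10 (1.09% to 15% reverse) and RLTR4_MM-int (1.85% to 14.6%) were forward throughout, and RLTR45 was reverse in 87.5% to 98.7% of reads until PD.

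**Figure D4:**
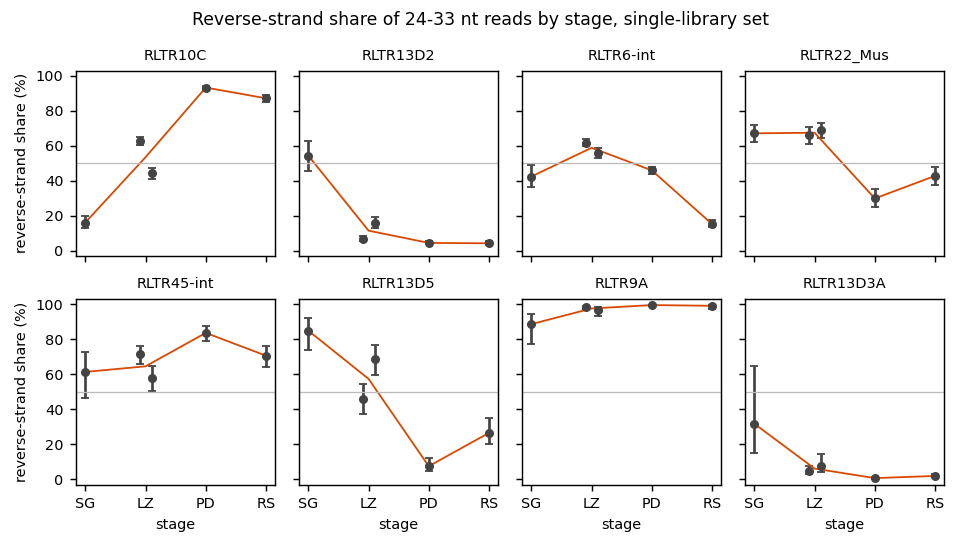
Reverse-strand share (%) of 24-33 nt reads by stage for 8 RLTR sequences of the single-library set; points are libraries with 95% Wilson intervals for counting error, and the line joins the stages through the mean of the LZ libraries. RLTR10C climbs from 16.1% to 93.3% and RLTR13D2 drops from 54.4% to 4.49% between SG and PD, RLTR6-int drops to 15.3% in RS, and RLTR9A and RLTR13D3A stay near the edges from LZ on.

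Counted over members with at least 10 RPM in both stages, the strand that held most reads changed in every library in 1 of 8 from SG to LZ (RLTR6-int), in 2 of 11 from LZ to PD (RLTR6-int and RLTR22_Mus) and in 0 of 16 from PD to RS. By the LZ means the counts were 2 and 3, with RLTR10C and RLTR10B2 added, whose LZ libraries lay on either side of 50%. RLTR13D2, just under 10 RPM in SG, is not in the first count. Among the other LTR sequences it changed in every library in 4 of 36, 8 of 40 and 4 of 37. A share of at most 10% or at least 90% reverse was found in 2 of 9 (SG), 5 of 17 (LZ), 9 of 18 (PD) and 8 of 17 (RS) members with at least 10 RPM, and in 8 of 38, 11 of 44, 16 of 43 and 13 of 37 of the other LTR sequences. Summed over all members as deposited, the reverse share was 39.8% (SG), 42.3% ± 7.05 (LZ; SD, n = 2), 45.2% (PD) and 31.5% (RS). With the RLTR10C row turned, an alternative chosen after seeing the data, it was 46.2% (SG), 41.4% (LZ), 34.2% (PD) and 24.4% (RS), so the course of the sum from SG to PD depends on the orientation of that row.

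Longer reads made up more of the sum in the later stages. Reads of 28-33 nt, the longer length class of the tables, made up 37.9% of the summed reads in SG, 41.2% and 40.6% for LZ, 71.0% for PD and 83.1% for RS. The other LTR sequences had 45.6%, 46.0% and 47.1%, 74.5% and 85.4%. In RPM, the 28-33 nt class went from 152 (SG) to 250.0 and 299 (LZ), 735 (PD) and 643 (RS), and the 24-27 nt class from 248 to 357 and 438, then 301 and 131. Among the 18 members with at least 10 RPM in PD the share of long reads ran from 23.5% (RLTR9A) to 93.6% (RLTR13D3). RLTR9A kept short reads at every stage, with 16.7% and 21.6% of 28-33 nt in LZ and 39.1% in RS, as did RLTR45 until PD (33.9%). RLTR30B_MM had 42.3% in PD but 68.9% in RS. RLTR22_Mus went from 35.5% and 34.5% in LZ to 90.4% in PD.

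In the technical-replicate set small RNAs of these sequences were scarce in both stages. The summed level was 18.6 and 14.7 RPM in SG_T and 23.3 and 14.0 RPM in LZ_T, and no member reached 10 RPM. Mean RPM of the runs times their summed depth gives a rough 26.6 to 151 reads per sample. The estimate is rough because the runs of a sample differed in depth and level. In the second SG_T sample, for instance, they had 8.79 and 20.55 RPM. Spearman correlations between runs of a sample were 0.28 to 0.40 over the members. The difference between the stages was within the spread (18.7 ± 6.61 RPM in LZ_T against 16.6 ± 2.75 RPM in SG_T, SD, n = 2 each; two-sided exact permutation test p = 1, and 2 against 2 samples cannot go below 0.333). Limma was fitted on log2(RPM + 1), for every retrotransposon that averaged 1 RPM or more over the samples compared, and 25 of 58 were higher in LZ_T (43.1%) and 0 lower (0%). Rescaled to the total of all listed retrotransposons this turned to 0 higher and 48 lower of 77, with 7 of 11 members lower. A single member was among the 58, RLTR10B, an LTR of the ERVK class chosen here after its values were seen. It had 0.680 and 1.04 RPM in SG_T and 4.14 and 1.21 RPM in LZ_T, a log2 fold change of 0.86 ± 0.42 (SE; limma adjusted p = 0.113). It passed with a replicate block (limma adjusted p = 0.0101) and without the second LZ_T sample (1.47 ± 0.53, limma adjusted p = 0.0214), and turned to -0.90 when rescaled to the total of all listed retrotransposons. With no filter on low values 0 of the 126 members passed in either direction, beside 1.15% higher and 0.382% lower over all 262. At an unadjusted limma p under 0.05, 7 of the 126 members were higher and 1 lower, beside 34 and 4 of all 262.

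L/Z of the technical-replicate set held far fewer of these small RNAs than L/Z of the single-library set. The sum was 671.9 ± 91.2 RPM in LZ and 18.7 ± 6.61 RPM in LZ_T (SD, n = 2 each), a 36.0-fold difference with no overlap (exact permutation test, two-sided, p = 0.333, which is the least that 2 against 2 samples allow). As RPM of the 24-33 nt reads alone the difference was 17.6-fold. RLTR6-int had 90.8 and 74.7 RPM in LZ and 0.285 and 0.440 RPM in LZ_T. RLTR4_MM-int had 55.7 and 83.2 RPM in LZ and 1.28 and 0.655 RPM in LZ_T. RLTR10C had 60.0 and 52.9 RPM in LZ and 1.06 and 0.645 RPM in LZ_T. In all 3 both LZ_T samples were far below both LZ libraries.

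On the log2(RPM + 1) scale, which understates the change of low values, limma gave -5.94 ± 0.44 for RLTR6-int (SE; limma adjusted p = 1.71e-30), -5.15 for RLTR4_MM-int, -4.96 for RLTR10C, -4.82 for RLTR13D2, -4.50 for RLTR10A and RLTR10 and -4.30 for RLTRETN_Mm. The next were RLTR9A (-4.01), RLTR30B_MM (-3.84), RLTR22_Mus (-3.64), RLTR45 (-3.60) and RLTR43C (-3.58). Their SE is shared because limma estimated 1 spread for all rows from 2 samples a group. The adjusted p above therefore rests on that pooled spread and not on the spread of RLTR6-int alone. RLTR30B_MM was at 0 in both LZ_T samples, and against 3 reads over the group LZ was at least 80.3-fold higher by its mean and at least 51.1-fold by the second LZ library alone. Of the 45 members that averaged 1 RPM or more, 45 were lower and 0 higher, beside 91.9% lower and 2.21% higher among all 136 tested. That filter passes members through their LZ values, so the count is no support by itself. Without the filter 81 of all 126 members were lower and 0 higher, beside 66% lower and 1.15% higher among all 262. Both LZ_T samples lay below both LZ libraries in 109 of the 126 members and in 225 of the 262 retrotransposons. RLTR10B was the highest member in both LZ_T samples, and its call was lost when either LZ library (limma adjusted p = 0.0868 and 0.166) or the second LZ_T sample (limma adjusted p = 0.0510) was left out.

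**Figure D5:**
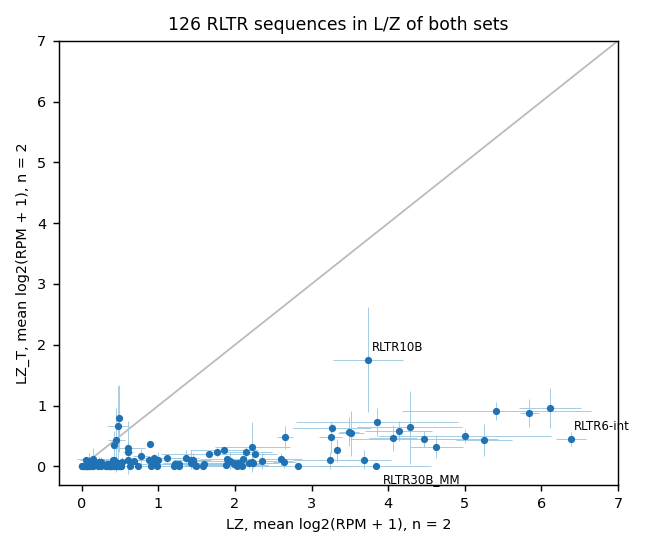
Mean log2(RPM + 1) of 24-33 nt reads of the 126 RLTR sequences (points; bars are SD, n = 2 each) in L/Z of the single-library set (horizontal) and of the technical-replicate set (vertical), with the line of equal values in grey. Most points lie below the line, RLTR6-int falls from 90.8 and 74.7 RPM to 0.285 and 0.440 RPM, and RLTR10B keeps the highest LZ_T value.

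Spermatogonia had a like difference, with 400.5 RPM in SG against 18.6 and 14.7 RPM in SG_T, 24.1-fold in RPM and 14.9-fold as RPM of the 24-33 nt reads alone, and with 1 SG library it was not tested. Both SG_T samples lay below SG in 107 of the 126 members and in 235 of the 262 retrotransposons. The strand shares of the L/Z samples overlapped between the sets: the reverse share of the sum was 35.8% and 45.2% in LZ_T and 47.2% and 37.3% in LZ (two-sided exact permutation test p = 0.667). The share of 28-33 nt reads was 33.4% and 36.2% in LZ_T, below the 41.2% and 40.6% of LZ without overlap (exact permutation p = 0.333, the least possible here). The sets also differed in miRNAs of somatic testis cells. The Sertoli cell miRNA miR-202-5p stood at 15.8 and 38.0 RPM in LZ and 7802 and 4253 RPM in LZ_T, and at 208 RPM in SG and 508 and 454 RPM in SG_T. The endothelial miR-126a-3p stood at 58.4 and 136 RPM in LZ and 868 and 1229 RPM in LZ_T, and the blood cell miRNAs miR-142a-5p and miR-223-3p at 0.0668 to 3.38 RPM in LZ and 2.32 to 6.59 RPM in LZ_T. All 4 somatic miRNAs measured were thus higher in both LZ_T samples than in both LZ libraries. Of the miRNAs fixed as spermatogonial, miR-221-3p stood at 0.134 and 0.687 RPM in LZ and 7.71 and 11.2 RPM in LZ_T. For miR-222-3p the values were 1.03 and 1.83 RPM in LZ and 9.64 and 8.36 RPM in LZ_T. Those fixed as meiotic were lower in LZ_T. They were miR-34b-5p, at 3.27 and 5.04 RPM in LZ and 0.80 and 1.30 RPM in LZ_T, and miR-449a-5p, at 24.1 and 36.1 RPM in LZ and 15.7 and 13.7 RPM in LZ_T. The part of these miRNAs or their cells in the difference was not tested. Fewer germ cells and less small RNA per cell cannot be told apart in such samples. Genotype, run, depth and sample composition cannot be told apart between the sets.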

How the data were processed

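Small RNAs (TruSeq Small RNA kit) came from sorted germ cells. The submitters' processing notes name cutadapt. Per the study's methods the authors removed reads of abundant non-coding RNAs and miRNAs, mapped the rest to consensus retrotransposons with SeqMap at up to 2 mismatches, divided reads with several best matches, and deposited RPM values by strand and length class. The deposited read lists hold counts per distinct sequence, from which depth, miRNA levels and the matched reads were taken. Forward and reverse reads of 24-27 and 28-33 nt were summed in Python 3.11.15 (pandas 2.3.3, scipy 1.17.1), the runs of a sample were averaged, and 6 to 8 rows per table that are satellites, other repeats or stray names were left out. RPM are not counts, so limma 3.58.1 (R 4.3.3) was fitted on log2(RPM + 1) of all rows with a mean of at least 1 RPM. Benjamini-Hochberg adjustment was used at 0.05. The fit was first run on simulated data with independent rows and a preset spread, which gives no measure of the error rate in these data. Stage steps with single libraries used ratios (pseudocount 0.5) and no test. Members named in the text (24) were the 15 highest over the group means, up to 12 per direction from limma, up to 6 per direction and step by ratio and by reverse share, the internal regions and those with designed sequences. Wilson intervals (95%) used RPM times depth, rounded. The permutation p-values measure only the spread between these samples. The limma p-values use a spread pooled, in part or in whole, over rows of which some share divided reads. The members and lists were chosen with earlier results of these data known.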

Additional observations from a re-analysis of the deposited data

Results flagged for a closer look

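Reads outside 24-33 nt entered no comparison, and their sums lay above the value of 3 reads in every sample. Reads of 11-18 nt summed over the RLTR sequences to 13459 RPM in SG, 10925 (mean of the LZ libraries), 3966 (PD) and 4756 (RS), and to 12748 and 11436 RPM as the means of SG_T and LZ_T. Unlike the 24-33 nt class, this class had overlapping levels in L/Z of both sets (11868 and 9981 RPM in LZ, 10514 and 12359 RPM in LZ_T). RLTR8, picked after its values were seen, was its leading member in 7 of 9 samples, with 14.2% to 19% of the sum in the LZ libraries. There it had 2258 and 1416 RPM in this class but 0.27 and 0.11 RPM of 24-33 nt reads. The reverse share of the class was 43.6% and 46.9% in LZ and 49.7% and 46.9% in LZ_T. Whether reads this short stem from the RLTR sequences was not tested.

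Reads of 19-23 nt summed to 137 RPM in SG, 242 (LZ), 392 (PD) and 385 (RS), and to 98.6 and 94.9 RPM in SG_T and LZ_T. RLTR30B_MM led this class in PD with 99.7 RPM, 25.4% of the sum, which was more than its 39.9 RPM of 24-33 nt reads there. RLTR10C led it in RS with 68 RPM.

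Reads of 34-48 nt summed to 5.02 RPM in SG, 10.7 (LZ), 14.5 (PD) and 11.2 (RS), and to 6.23 and 4.09 RPM in SG_T and LZ_T. RLTR10C held 42.8% of this class in RS. No explanation of these values was tested.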

How the results depend on the processing

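With 2 samples a group and 1 library of SG, PD and RS, precision was set by the number of samples. In the technical-replicate set it was also set by the roughly estimated 26.6 to 151 reads per sample. The settings per 24-33 nt reads, per miRNA reads, without RLTR6-int, RLTR10C and RLTR13D2, with crossed replicates and with the RLTR10C row turned were chosen after seeing the data. Among the main results 122 settings kept the value within a set tolerance, 49 moved it and 5 turned its direction, and the causes were not tested. The tolerance was a fixed ratio for counts, and the SD or Wilson interval for sums and shares. A value within it could still change, as from 12 to 15 members higher from LZ to PD at 5 RPM.

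In LZ_T against SG_T, 1 member was higher with a replicate block, in technical replicate 1 alone and per 24-33 nt reads, and leaving out replicates gave 0 to 1 (1 without LZ_T replicate 2). Rescaled to the listed total 7 were lower, RLTR10B turned to -0.90, and the split over all retrotransposons went from 25 higher and 0 lower to 0 higher and 48 lower. In LZ_T against LZ, 81 members were lower with no filter, 9 of 9 at a mean of at least 10 RPM, 45 with a replicate block or crossed replicates and 33 to 49 without 1 replicate. Deviations of samples of the same number had correlations of 0.11 and -0.19 over the retrotransposons, and the main fits used no pairing. With 2 samples a group these values cannot tell whether the numbers pair samples. Over all retrotransposons the block gave 30 higher and 4 lower in LZ_T against SG_T, and 124 lower in place of 125 in LZ_T against LZ.

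From SG to LZ the members higher were 10 at 5 RPM, 3 at 20 RPM, 14 per miRNA reads and 6 to 8 without 1 LZ library; lower were 1 per 24-33 nt reads and 0 to 2 without 1 LZ library (2 without the second). From LZ to PD higher were 6 at a log2 ratio over 1.5, 3 per 24-33 nt reads, 54 per miRNA reads and 10 to 11 without 1 LZ library; lower were 3 at 20 RPM, 3 at a log2 ratio over 1.5, 2 rescaled to the listed total, 8 per 24-33 nt reads, 0 per miRNA reads and 4 to 8 without 1 LZ library (8 without the first). From PD to RS higher were 9 rescaled; lower were 5 at 5 RPM, 1 at 20 RPM, 1 at a log2 ratio over 1.5, 0 rescaled, 1 per 24-33 nt reads and 18 per miRNA reads.

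As log2 ratios of summed RPM, LZ over SG (0.75) became 0.95 as share of the listed total, 0.26 per 24-33 nt reads and 1.5 per miRNA reads. PD over LZ (0.62) became 1.53, -0.39 and 3.94 on these scales and 0.25 without the 3 leading members. RS over PD (-0.42) became 0.80, -0.40 and -0.68, and -0.24 without the 3. LZ_T over SG_T (0.17) became -2.64 and -0.53 as share and per miRNA reads, and -0.25 to 0.49 without 1 replicate (-0.25 without LZ_T replicate 1). LZ_T over LZ (-5.17) became -4.13 per 24-33 nt reads and -5.94 per miRNA reads.

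The reverse share of the sum became 44.7% without the most abundant member in SG (39.8% with it), 43.5% as the mean over members in PD (45.2%), and 37.2% as that mean and 34.1% without the top member in RS (31.5%). With the RLTR10C row turned it became 46.2% (SG), 34.2% (PD) and 24.4% (RS). With up to 2 mismatches the antisense share became 85.6% for RLTR10C in the second LZ library (95.2% for exact matches) and, for RLTRETN_Mm, 74.8% in PD (50%) and 69.4% in RS (37.5%).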

Other observations

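The LZ libraries, which the labels give as biological replicates, differed in several RLTR sequences. Over the 17 members with a mean of at least 10 RPM the median ratio between them was 1.49, and 6 differed by more than 2-fold, namely RLTR10, RLTR10A, RLTR6_Mm, RLTR9A, RLTR30B_MM and RLTR22_Mus. RLTR9A had 34.5 and 12.7 RPM and RLTR30B_MM 19.4 and 9.02 RPM, in both cases with the first library nearer to PD. RLTR6_Mm had 7.6 and 23.3 RPM, where PD had 6.09 RPM. The first library was nearer to PD in log2 RPM for 18 of 25 members with a stage mean of at least 10 RPM, and in reverse share for 13 of 18 members with at least 5 RPM in LZ and PD. Both counts rest on the same LZ libraries and were not made over the other listed retrotransposons. They therefore give no trait particular to the RLTR sequences. The order of members was still alike in both (Spearman 0.947 over the 126 members, which are not independent replicates). Their summed shares of 28-33 nt reads, 41.2% and 40.6%, differed little.

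The designed sequences of 3 other elements gave fewer reads. That of RLTR1B was cut short as listed, so 399 of its stated 433 bases were searched. RLTR4 had 130 sense and 10 antisense reads over the single-library set, RLTR6 110 and 65, and RLTR1B 3 and 4, with exact matches, where 10 bases was not the single leading overlap for any of them. With up to 2 mismatches it was for RLTR4 (28 pairs, at most 24 at another overlap) and RLTR6 (101 pairs, at most 76). These counts again pool reads over the libraries before pairing. Within the LZ libraries the values were 22 and at most 16 for RLTR4, and 58 and at most 54 for RLTR6.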
